A study of Mus musculus with 10 samples.

Results

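The genes of the cytosolic ribosomal proteins were followed in keratinocytes from mouse back skin. The members were the protein-coding genes whose symbol begins with Rpl or Rps and a digit, or is Rplp0, Rplp1, Rplp2, Rpsa or Rps27a. Kinases of ribosomal protein S6, Rps19bp1 and pseudogenes were left out, and a member had to be listed in the files of all 10 libraries. That gave 82 members of 15987 genes, 33 of the small subunit and 49 of the large subunit. All 82 passed the filter on low values. Files of different groups list different numbers of genes (16014 to 17983), so listing in all of them is a filter on detection. Of 85 annotated protein-coding genes with such a symbol, Rpl3l, Rpl10l and Rpl39l, the paralogs of Rpl3, Rpl10 and Rpl39, were listed in 0 files and are not members. The members lay on 19 chromosomes, with 14 of them on chromosome 7.

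The study compared control mice, labelled wild type, with mice labelled Gsdma1KO/KO;Gsdma3fx/fx;K14-Cre, which lack Gsdma1 in all cells and carry a floxed Gsdma3 cut by a recombinase under the keratin 14 promoter, active in basal keratinocytes of epidermis and hair follicle. Gsdma1 and Gsdma3 encode gasdermins, proteins that can form pores in membranes. The back skin was rubbed 2 times daily over 3 days with olive oil in acetone (1 part oil to 4 parts acetone), which extracts skin lipids and disturbs the epidermal barrier, or with water as the control treatment, and all libraries are labelled day 5. Keratinocytes were released with dispase and trypsin, and their RNA was sequenced in 3 control and 3 knockout libraries under olive oil/acetone and in 2 control and 2 knockout libraries under water. The labels do not tell how old the mice were, nor whether each library came from a separate mouse. If they did not, the p-values below describe technical spread only.

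Each cytosolic ribosome carries a single copy of nearly every ribosomal protein, so the genes are transcribed strongly and at like levels. Many of their mRNAs begin with a run of pyrimidines, the terminal oligopyrimidine tract, through which mTOR signalling and the RNA-binding protein LARP1 control their translation. Dividing basal keratinocytes make many ribosomes, and reduced dose of single ribosomal proteins is known to darken mouse skin and to alter the skeleton.

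Recovered depth was 15914663 to 21812292 reads per library, and values are normalised read counts. Gsdma3 stood at 62.1 to 283.4 in control libraries and at 0 to 2.64 in knockout libraries. Gsdma, the gene the labels call Gsdma1, stood at 198.8 to 732.7 in control libraries and at 170.1 to 845.7 in knockout libraries, so its RNA did not check the labels. The 9 keratinocyte markers, Krt5 and Krt14 among them, were above 0 in every group. The Y-linked gene Ddx3y stood at 1426 to 2342 in all olive oil/acetone libraries and at 0 in all water libraries. The sex of the animals and the treatment therefore cannot be told apart in any difference between treatments below, in either genotype. The same holds where these differences are compared between the genotypes. Control water replicate 2 stood apart, with 11110 summed over 9 hair shaft and inner root sheath genes against 131 in control water replicate 1. The summed level of 5 red blood cell genes was 14460 to 27620 in knockout olive oil/acetone libraries and 1175 to 2540 in knockout water libraries. That of 5 endothelial genes was 281 to 411 against 66.1 to 203 there, and that of the hair genes 295 to 2458 against 193 to 217. In controls, summed markers of Langerhans and dendritic cells (8159 to 11510 under olive oil/acetone, 12520 to 34480 under water), skeletal muscle (158 to 203, 319 to 746) and sebocytes (3571 to 7310, 7641 to 9535) stood lower under olive oil/acetone without overlap. T cell markers overlapped (7669 to 18560, 17280 to 27130), with 7 of 8 genes lower at an unadjusted p under 0.05. Summed keratinocyte markers stood higher in treated controls without overlap (1002000 to 1201000, 762000 to 811200), with 7 of the 9 differences positive and 2 negative. In the knockout their sums overlapped (853700 to 1152000 under olive oil/acetone, 856400 to 871000 under water), with 4 differences positive and 5 negative. The part of these cells in the results below was not tested. In bulk RNA, fewer cells of a type and less RNA per cell cannot be told apart.

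Starts of 10 members are printed from 10 bases before to 20 bases into the transcript as RefSeq places it on GRCm38.p6. They are the 4 members that passed the test below, Rpl7l1, the member that stood lower in all treated knockout libraries, Rps27 with its 2 copies, Rpl38 and Rps6. Capitals mark hexamers of the kind found in a pyrimidine tract, searched on the transcribed strand: CTTTCC, its variant CTTTTC, the further variant CTTTTT, and last the variant CTTTCT.
Rpl13a (chr7:45128726-45128755, minus strand): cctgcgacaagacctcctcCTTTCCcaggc
Rpl41 (chr10:128549149-128549178, minus strand): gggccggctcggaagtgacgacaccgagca
Rpl14 (chr9:120571507-120571536, plus strand): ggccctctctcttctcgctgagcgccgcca
Rpl22l1 (chr3:28805498-28805527, plus strand): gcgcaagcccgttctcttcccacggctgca
Rpl7l1 (chr17:46782637-46782666, minus strand): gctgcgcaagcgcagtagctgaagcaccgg
Rps27 (chr3:90213629-90213658, minus strand): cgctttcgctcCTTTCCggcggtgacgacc
Rps27rt (chr9:114982720-114982749, minus strand): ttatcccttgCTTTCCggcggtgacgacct
Rps27l (chr9:66946076-66946105, plus strand): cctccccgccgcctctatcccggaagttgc
Rpl38 (chr11:114668570-114668599, plus strand): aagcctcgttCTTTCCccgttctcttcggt
Rps6 (chr4:86857348-86857377, minus strand): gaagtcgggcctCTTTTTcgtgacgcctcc
Of the 4 members that passed the test, only Rpl13a held one of these hexamers in the printed stretch. In Rpl14 and Rpl22l1 the stretch held runs of pyrimidines that match none of the 4 hexamers, so a missing hexamer does not mean a missing tract. Their RefSeq starts lay 73 and 72 bases from the start of the main transcript in the GENCODE annotation. Rps27 and Rps27rt shared a run of 19 bases that begins with the capitals, while Rps27 and Rps27l shared at most 4 bases in a row.

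RefSeq promoters matched 62 of the 82 members. Within 50 bases on either side of the start, 36 of these 62 (58.1%) held at least 1 of the 4 hexamers, against 1293 of 11291 other genes (11.5%). CTTTCC alone was found in 32.3% of members and 4.13% of other genes. CTTCCG, the core of ETS family sites, searched on both strands, stood in 37.1% of members and 17.0% of other genes in the same window. The 4 hexamers can overlap one another, and a gene that held more than 1 was counted once. A match describes letters only.

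Ribosomal protein genes took up 4.58% to 8.14% of all reads in a library. The share was 6.29%, 7.02% and 7.43% in control libraries under olive oil/acetone, and 4.58% and 7.27% in control libraries under water. In the knockout it was 7.54%, 8.14% and 7.08% under olive oil/acetone, and 5.09% and 5.50% under water. The knockout treatments did not overlap (7.59% ± 0.530, SD, n = 3, against 5.29% ± 0.293, SD, n = 2), while the control treatments did (6.91% ± 0.576, SD, n = 3, against 5.92% ± 1.90, SD, n = 2).

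Levels of different genes are compared per kilobase. Per kilobase of merged exons, the median member stood at 7613 normalised counts, and the highest were Rplp1 at 61550 and Rplp0 at 31710, both proteins of the ribosomal stalk, then Rps15 at 24100, Rps3a1 at 23460 and Rpl36 at 21220. The lowest were Rpl36al at 25.4, Rpl24 at 119.1, Rps27rt at 147.0, Rps10 at 158.0 and Rpl7l1 at 427.7. Merged exons count rare isoforms in full, so the length of the principal mRNA was used as well, a choice made after the data were seen. On that scale the median was 18870, and the quartiles of the members lay at 14800 and 23380. Rpl41, whose mRNA encodes the shortest of the ribosomal proteins, stood second at 51980, followed by Rps12 at 47350.

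The low end held genes whose reads may be shared with another gene model. On the same strand another annotated gene covered 91.6% of the Rps10 mRNA (RPS10-NUDT3), 71.5% of that of Rpl24 (Gm28037), 63.1% of that of Rpl36al (Gm49383) and 59.3% of that of Rpl13a (Gm45713 and Mir5121). Reads in such stretches can be left uncounted or split, so the levels of these 4 members are uncertain, and the strand setting of the counting is not given in the sources used here. Rps27rt has 1 exon and encodes exactly what Rps27 encodes: all 255 bases of the coding sequence, stop codon included, were identical. Its 147.0 counts per kilobase of mRNA against 37960 for Rps27 are uncertain for that reason. Overlap on the opposite strand covered 68.3% of the Rpl35 mRNA and 55.4% of that of Rpl23a. The annotation also holds 294 pseudogenes with a ribosomal protein symbol, 59 of them listed in at least 1 file. Whether members lost or shared reads with such copies was not tested, so the order of members per kilobase is uncertain to that degree.

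**Figure D1:**
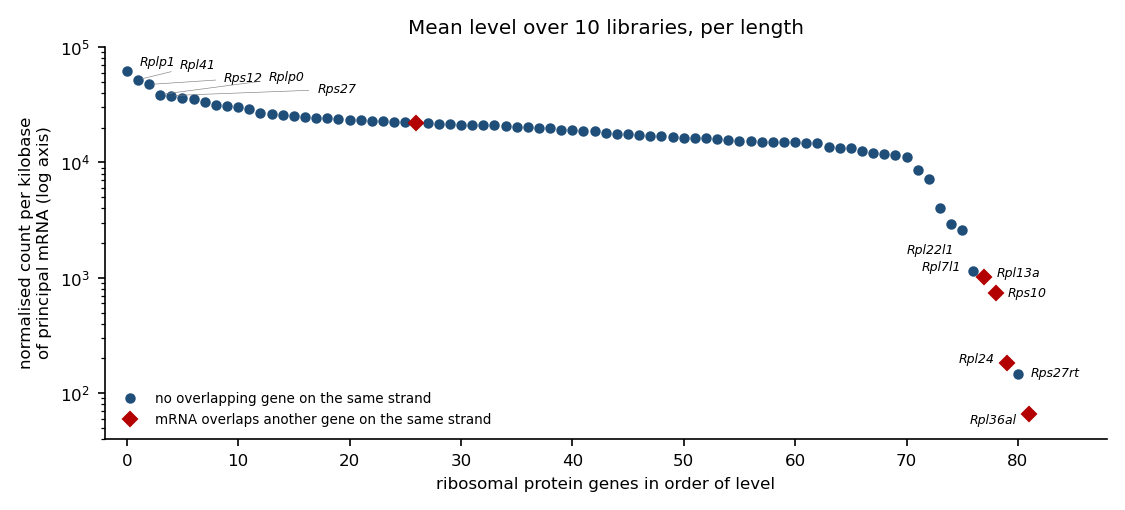
Mean normalised count per kilobase of principal mRNA (log axis) for the 82 ribosomal protein genes, in order of level over the 10 libraries. Points run from Rplp1 at 61550 to Rpl36al at 65.4, and 4 of the 6 lowest members have an mRNA that overlaps another gene on the same strand (diamonds) by more than 59%.

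Across the 10 libraries the members' levels shifted together. The log2 level relative to the gene mean had a median over members of 0.05, 0.10 and 0.20 in control libraries under olive oil/acetone and of -0.45 and 0.11 in those under water. In knockout libraries it was 0.25, 0.27 and -0.06 under olive oil/acetone and -0.28 and -0.18 under water. Control water replicate 1 was the lowest of all 10 libraries for 76 of 82 members. Control water replicate 2 was above replicate 1 for 81 members and above all 3 control olive oil/acetone libraries for 22. The highest library was knockout olive oil/acetone replicate 2 for 41 members and replicate 1 for 31, and replicate 3 was the lowest of that group for 79.

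**Figure D2:**
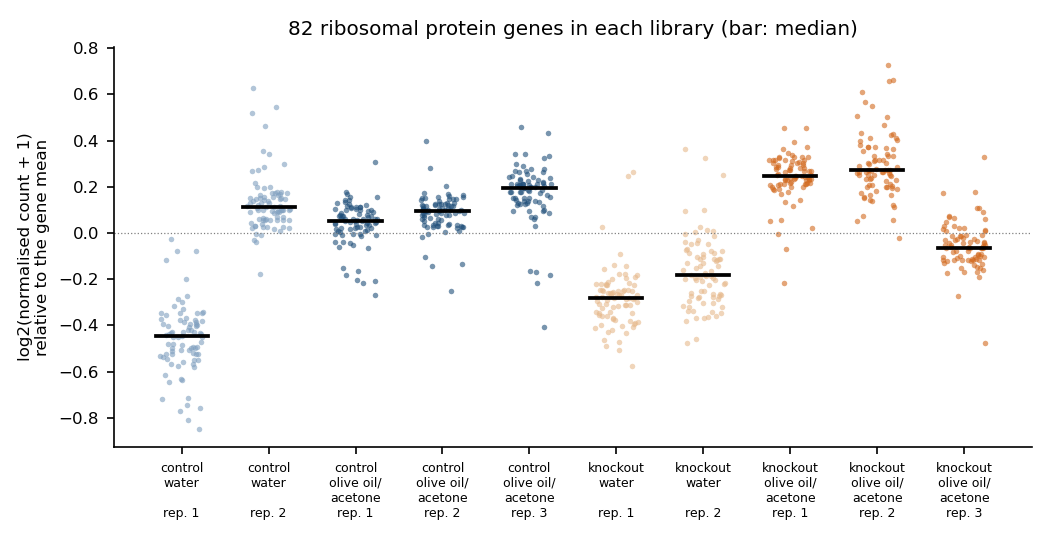
Level of each of the 82 ribosomal protein genes in each library, as log2(normalised count + 1) relative to the gene mean over 10 libraries (points), with the median (bar). The 2 control water libraries lie at -0.45 and 0.11, and the 2 knockout water libraries at -0.28 and -0.18.

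As a description over 10 libraries that share their depth and scaling, the correlation of a member with the median of the other members had a median of 0.969. Rpl7l1, a paralog of Rpl7 linked to nucleolar pre-rRNA processing, had -0.30. Rpl24, Rpl36al, Rps10 and Rps27rt, low members of uncertain level, had 0.12, 0.14, 0.18 and 0.39. Rpl13a, whose level is uncertain too, had 0.92. Among the other members, Rps3a1 had 0.49 and Rps27l, a paralog of Rps27 and a known p53 target, had 0.69.

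Short members varied most. The 27 members with the shortest coding sequences (75 to 390 bases) had a median SD of 0.314 on the log2 scale across all libraries, against 0.235 in the 27 of middle length and 0.235 in the 28 longest. Rps29 had 0.483, Rpl41 had 0.457, Rps27 had 0.445 and Rpl38 had 0.437. Rpl15, at 0.168, and Rps19, at 0.172, varied least. Rpl41 is the extreme of that range, and its whole coding sequence is short enough to print. It has 78 bases with its stop codon and encodes 25 amino acids; capitals mark the start and stop codons.
Rpl41 coding sequence (GENCODE, GRCm38, gene at chr10:128548114-128549305, minus strand): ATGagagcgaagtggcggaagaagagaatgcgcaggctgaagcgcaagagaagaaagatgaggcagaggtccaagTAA

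In knockout keratinocytes, 4 ribosomal protein genes were higher under olive oil/acetone than under water and 0 were lower. They were Rpl13a, Rpl41, Rpl14 and Rpl22l1, all of the large subunit. Over all genes tested, limma called 13.4% in either direction and 6.74% higher, so 4 of 82 was not above the background. The median log2 difference of the members was 0.36 against 0.01 over all genes, and 79 of 82 differences were positive. At an unadjusted p under 0.05 there were 31 members, where the share over all genes was 35.0%. That number was 5 without knockout water replicate 1 (19.5% of all genes), 8 without its replicate 2 (21.3%), 8 without knockout olive oil/acetone replicate 2 (25.8%), 18 without replicate 1 of that group (37.3%) and 43 without its replicate 3 (27.8%).

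Rpl13a, a large subunit protein also known for its part in the GAIT complex of translational control, read 1410, 1381 and 1162 in the knockout under olive oil/acetone and 746.2 and 738.4 under water. All 3 treated libraries lay above both water libraries. The log2 difference was 0.82 ± 0.18 (SE, limma adjusted p = 0.0219), on the log2(value + 1) scale used for all differences here. Under the control genotype it read 1145, 1118 and 1189 against 690.1 and 1007, which also did not overlap (log2 difference 0.46 ± 0.18, SE, limma adjusted p = 0.314). The level of Rpl13a is uncertain, since other gene models on the same strand cover 59.3% of its mRNA. It stood at 1011 counts per kilobase of principal mRNA, against a member median of 18870.

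Rpl41 read 29790, 33180 and 23140 in the knockout under olive oil/acetone and 14590 and 15840 under water. The groups did not overlap, and replicate 3 was the lowest of the treated libraries. The log2 difference was 0.90 ± 0.25 (SE, limma adjusted p = 0.0427), the largest among the members. Control libraries read 22820, 24180 and 27620 against 12740 and 23220, where the second water library lay within the treated range (0.53 ± 0.25, SE, limma adjusted p = 0.410).

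Rpl14, a large subunit protein, read 18700, 19680 and 15540 against 11310 and 11520 in the knockout. Again the lowest treated library was above both water libraries (0.65 ± 0.19, SE, limma adjusted p = 0.0456). In controls it read 15620, 16300 and 17070 against 10280 and 15050, also without overlap (0.39 ± 0.19, SE, limma adjusted p = 0.407).

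Rpl22l1 encodes a paralog of Rpl22 that can take its place in the ribosome, and Rpl22 is known to hold Rpl22l1 expression down. It read 1828, 1828 and 1445 against 1049 and 1118 in the knockout, with no overlap (0.64 ± 0.19, SE, limma adjusted p = 0.0468). Rpl22 read 8703, 8668 and 6625 against 6514 and 7373, with overlap (0.20 ± 0.18, SE, limma adjusted p = 0.464). As a percent of Rpl22, Rpl22l1 was 21.0, 21.1 and 21.8 in the treated knockout libraries and 16.1 and 15.2 in the water libraries. In controls that ratio was 19.6, 18.7 and 22.5 under olive oil/acetone and 18.5 and 19.1 under water, which overlapped.

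These 4 calls rested on the libraries in the fit. The count was 0 without knockout olive oil/acetone replicate 2, without its replicate 3, or without either knockout water library, and 1 without knockout olive oil/acetone replicate 1 or control olive oil/acetone replicate 2. Over all genes those fits called 2.66%, 1.5%, 0.0565% and 0.213%, then 17.8% and 5.26%. The count was 23 without control water replicate 1 and 21 without control water replicate 2, which enter this comparison only through the shared spread, and 19.7% of all genes were called in either fit.

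The pattern of values was wider than the calls, but the members shifted together across libraries. Counts of members, here and in the other comparisons, are therefore not counts of separate observations. In the knockout, 55 members (67.1%) had all olive oil/acetone libraries above both water libraries, where 28.8% of all genes tested did, and 1 member had all of them below, where 29.2% did. That member was Rpl7l1, which read 1538, 1462 and 1225 under olive oil/acetone and 1759 and 1765 under water (log2 difference -0.33 ± 0.17, SE, limma adjusted p = 0.187). Relative to Rpl7 it stood at 5.99%, 5.83% and 6.01% in treated and at 9.42% and 8.50% in water libraries of the knockout. In controls the same ratio was 7.49%, 5.57% and 5.10% against 8.76% and 6.63%, with overlap.

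**Figure D3:**
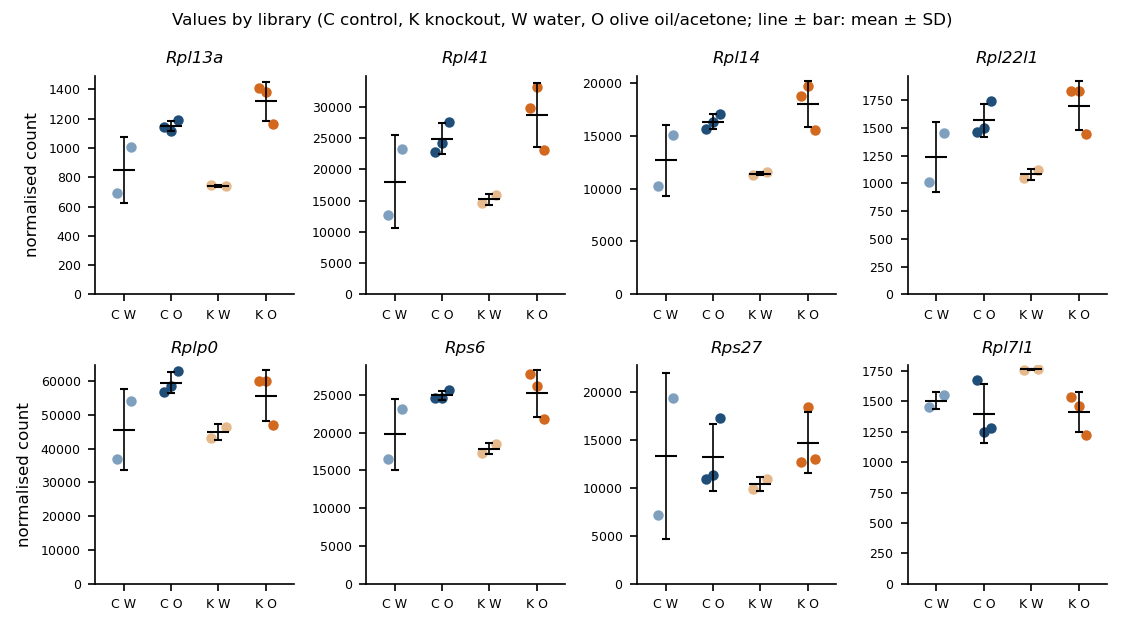
Normalised counts of 8 ribosomal protein genes by library (points), with the mean and SD of each group. Rpl13a, Rpl41, Rpl14 and Rpl22l1 lie higher in all 3 knockout olive oil/acetone libraries than in both knockout water libraries, Rpl7l1 lies lower in all 3, and the control water libraries of Rps27 lie at 7162 and 19390.

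By role, the stalk proteins, which recruit translation factors, differed by 0.30 ± 0.21 (Rplp0), 0.50 ± 0.24 (Rplp1), 0.66 ± 0.21 (Rplp2) and 0.33 ± 0.20 (Rpl12, at the stalk base) on the log2 scale (SE) between the knockout treatments. None of the 4 passed the test; Rplp2 came nearest (16220, 18460 and 13630 against 9788 and 10430, limma adjusted p = 0.0569). Rpl5 and Rpl11, which with 5S RNA can bind Mdm2 and so raise p53, differed by 0.16 ± 0.18 and 0.37 ± 0.18 (SE). Rpl5 overlapped between the treatments and Rpl11 did not.

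Rps6, the substrate of S6 kinase downstream of mTOR, read 27700, 26150 and 21770 against 17340 and 18440 in the knockout. The treated libraries were all higher (0.49 ± 0.18, SE, limma adjusted p = 0.0926). Rpsa, known also as a laminin receptor, read 38760, 41130 and 31880 against 23550 and 26170, with the same order (0.58 ± 0.21, SE, limma adjusted p = 0.0873). Rps27a, made as a fusion with ubiquitin, overlapped between the treatments (0.35 ± 0.20, SE).

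The genes of mouse dark skin and body mutants did not pass the test in the knockout. Rps19 and Rps20, whose mutation darkens mouse footpads, differed by 0.12 ± 0.18 and 0.36 ± 0.22 (SE), and both overlapped. Rpl27a differed by 0.41 ± 0.20 and Rpl38, known for skeletal patterning in the Tail short mouse, by 0.74 ± 0.31 (SE), both without overlap. Rpl24, the gene of the Belly spot and tail mouse, differed by -0.09 ± 0.25 (SE) at its uncertain low level of 105.8 to 156.9 counts over the 10 libraries.

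Of the genes mutated in Diamond-Blackfan anemia, a failure of red cell production, 5 more were picked by role and are not a full list; 0 of them passed the test in the knockout. Rps26 differed by 0.60 ± 0.22, Rpl35a by 0.33 ± 0.18, Rps24 by 0.30 ± 0.20, Rps10 by 0.29 ± 0.19 and Rps7 by 0.16 ± 0.20 (log2 differences, SE). Of these 5, Rps26 and Rpl35a did not overlap between the treatments.

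Rps27, a zinc finger protein of the small subunit, read 12740, 18390 and 12970 against 9874 and 10920 in the knockout. The treated libraries were all higher but far apart (0.48 ± 0.37, SE, limma adjusted p = 0.367). Its paralog Rps27l overlapped (0.14 ± 0.21, SE). Rpl36a differed by 0.60 ± 0.22 and its uncertain low copy Rpl36al by -0.14 ± 0.37 (SE); their coding sequences were identical at 87.9% of positions. Among the 6 highest differences were also Rps29 (0.77 ± 0.34), Rpl37a (0.68 ± 0.29) and Rpl38, which did not pass the test. Among the 6 lowest was Rps3a1 at 0.02 ± 0.24, a small subunit protein also known to bind initiation factors.

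**Figure D4:**
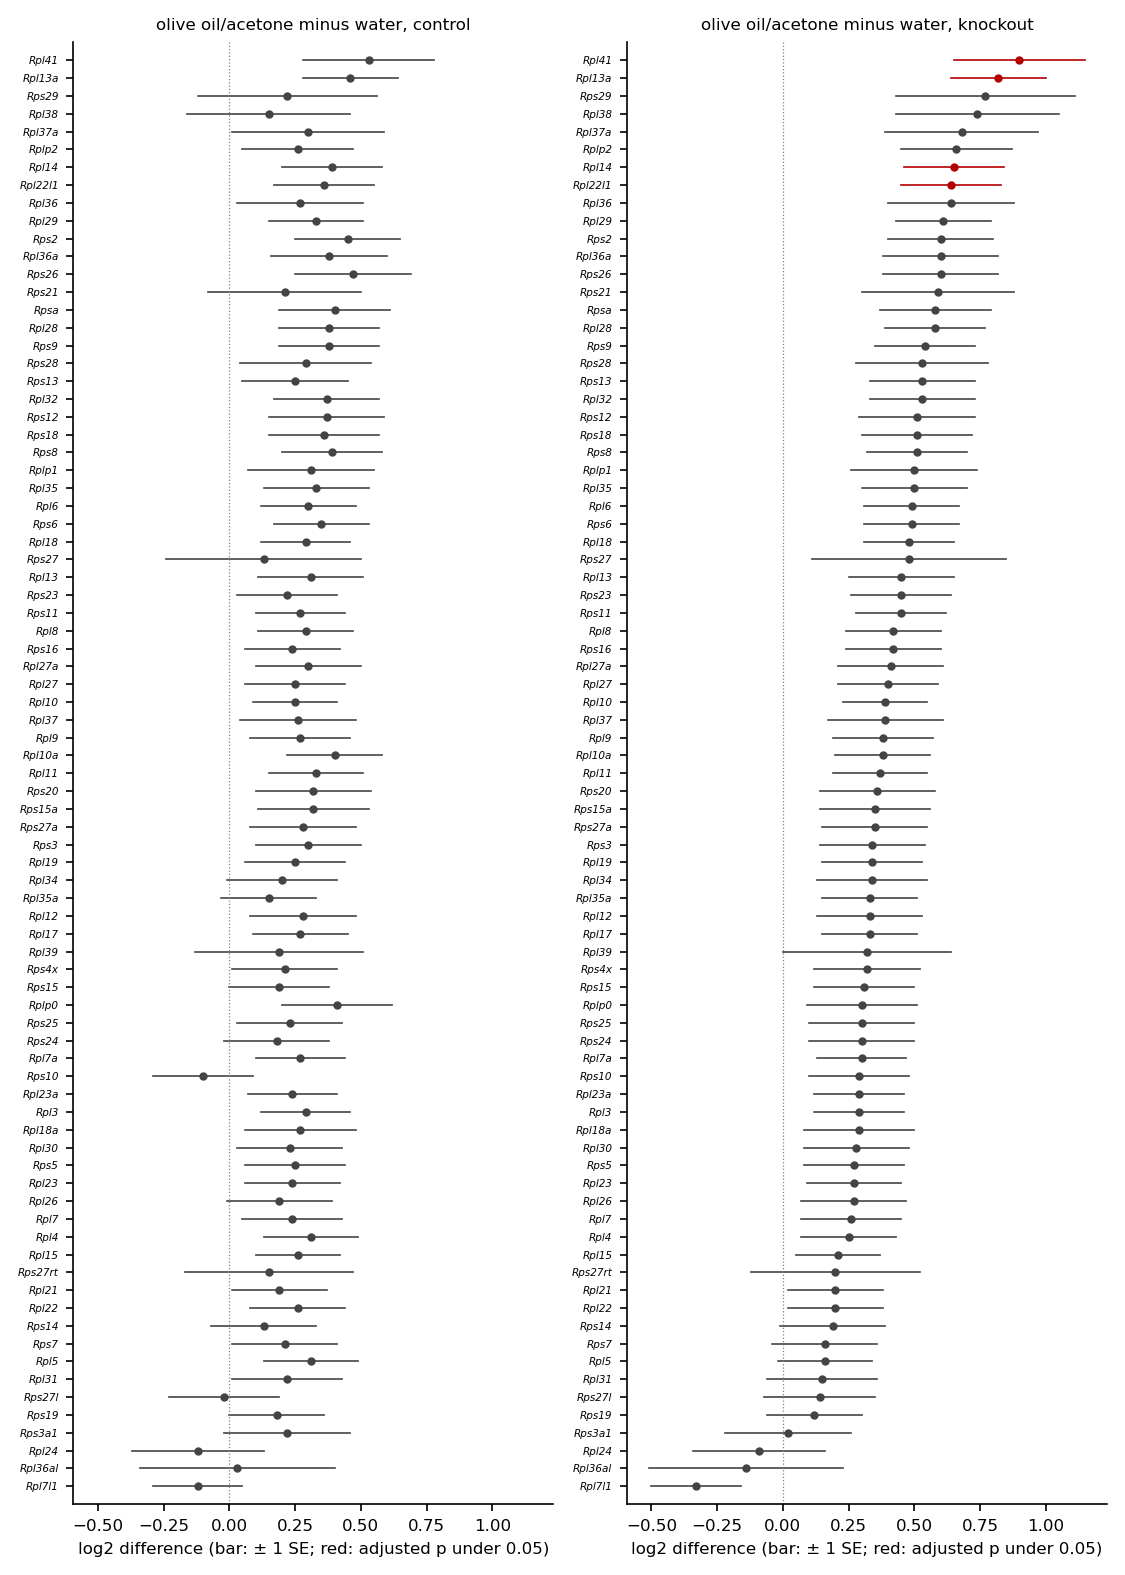
Log2 difference between olive oil/acetone and water for 81 of the 82 members (± 1 SE), in controls (left) and knockouts (right), in the order of the knockout. Red marks the 4 calls, Rpl41, Rpl13a, Rpl14 and Rpl22l1, all in the knockout; of those drawn, 77 control and 78 knockout differences are above 0.

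In control keratinocytes, 0 ribosomal protein genes were called between the treatments, by limma, by edgeR and by DESeq2. Of all genes, limma called 0.0627%, edgeR 0.0439% and DESeq2 2.22%. At an unadjusted p under 0.05 there were 2 members, Rpl13a and Rps2, against 12.9% of all genes. That number was 0 without control water replicate 1 (8.06% of all genes) and 69 without control water replicate 2 (19.0%). The median log2 difference of the members was 0.27, against 0.00 over all genes, and 78 of 82 were positive. The groups did not overlap for 21 members (25.6%), all higher under olive oil/acetone, where 12.2% of all genes were higher and 12.0% lower without overlap.

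The highest control differences were those of Rpl41 (0.53 ± 0.25), Rps26 (0.47 ± 0.22), Rpl13a (0.46 ± 0.18), Rps2 (0.45 ± 0.20), Rplp0 (0.41 ± 0.21) and Rpl10a (0.40 ± 0.18) on the log2 scale (SE). The lowest were Rpl24 and Rpl7l1 at -0.12, Rps10 at -0.10, Rps27l at -0.02, Rpl36al at 0.03 and Rps14 at 0.13. Rplp0, often used as a reference gene, read 56870, 58580 and 62940 under olive oil/acetone and 37070 and 54140 under water, so the groups did not overlap although the water libraries were far apart.

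The control median depended on which water library stood for the group. It was -0.011 without control water replicate 1 and 0.56 without control water replicate 2. Each of these medians rests on a single water library.

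Under olive oil/acetone, the knockout did not separate from the control in any member: 0 were called by limma, edgeR and DESeq2. Over all genes, limma and edgeR called 0% and DESeq2 1.05%. At an unadjusted p under 0.05 there were 0 members, against 12.0% of all genes. The median difference of the members was 0.05 (log2), -0.008 without knockout replicate 2 and 0.16 without knockout replicate 3, and differences ran from -0.18 (Rps3a1, which was 0.03 without knockout replicate 3) to 0.35 (Rpl38, ± 0.27, SE). Without overlap, 0 members were higher and 0 lower, where 8.55% and 8.23% of all genes were. Rpl38 read 4624, 6238 and 4450 in the knockout and 3551, 3679 and 4738 in the control, with overlap.

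Under water, 0 members were called between the genotypes by limma, edgeR and DESeq2. Of all genes, limma and edgeR called 0% and DESeq2 0.0376%. By limma 0 members had an unadjusted p under 0.05, against 4.98% of all genes. Without control water replicate 1 there were 16, against 11.3% of all genes. The median difference was -0.05, from -0.27 (Rps29, which was 0.42 without control water replicate 2) to 0.23 (Rpl7l1). Rpl7l1 was the 1 member without overlap, higher in the knockout (1759 and 1765 against 1454 and 1551), where 16.9% of all genes were higher and 17.8% lower without overlap. The median was -0.34 without control water replicate 1 and 0.24 without control water replicate 2.

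The difference between the genotypes in their treatment response was tested as an interaction. It was called for 0 members by limma, edgeR and DESeq2. The share over all genes was 0% by limma and edgeR and 1.23% by DESeq2. By limma 0 members had an unadjusted p under 0.05, against 11.9% of all genes. Without control water replicate 1 there were 16, against 21.4% of all genes. The median interaction was 0.12 on the log2 scale, with Rpl38 (0.59 ± 0.43, SE) and Rps29 (0.55 ± 0.49, SE) the highest. The response of the knockout is therefore not shown to differ from that of the control. Without control water replicate 2 these were -0.02 and -0.14. The median was 0.40 without control water replicate 1 and -0.18 without control water replicate 2.

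The treatment differences of genes outside the list ran with the length of the mRNA. Among protein-coding genes outside the list, the median difference between the knockout treatments was 0.59 for the 223 with a principal mRNA of up to 600 bases, 0.44 for 781 of 600 to 1000 bases, 0.25 for 3199 of 1000 to 2000 bases, 0.01 for 5606 of 2000 to 4000 bases and -0.25 for 3893 longer ones. Members of the same lengths stood at 0.49 (32 genes), 0.38 (32 genes), 0.32 (16 genes) and 0.26 (2 genes). In the shorter length classes the members lay below the median of other genes, and above 1000 bases over it. In controls, other genes fell from 0.21 in the shortest class to -0.07 in the longest. Members there rose with length instead, at 0.23, 0.27, 0.30 and 0.32. When the trend of level on mRNA length was removed within each library, an alternative chosen after the data were seen, the member median became 0.10 in the knockout and 0.17 in controls, and 1 member stayed called in the knockout. That member was Rpl13a, whose level is uncertain.

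**Figure D5:**
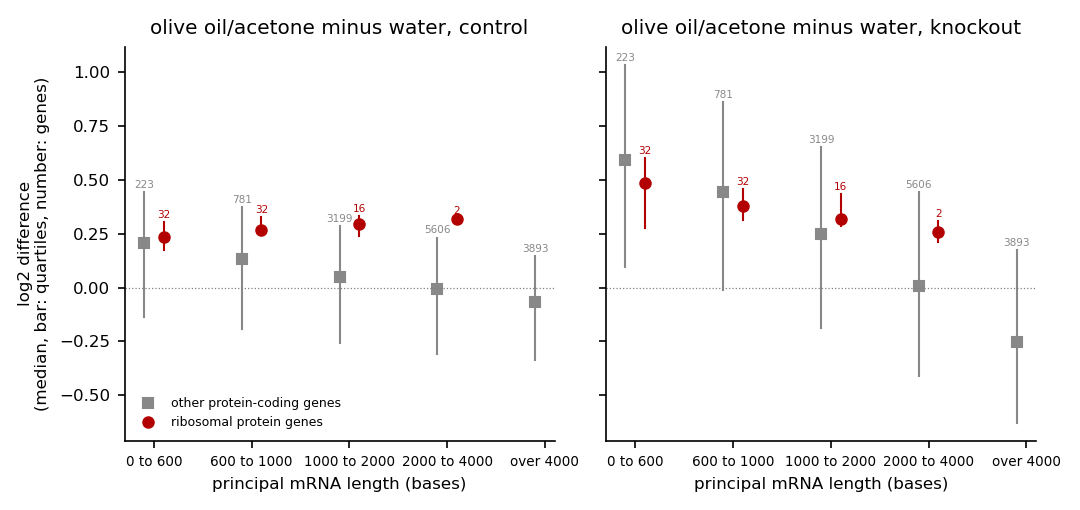
Median log2 difference between olive oil/acetone and water, with quartiles, by length of the principal mRNA, for ribosomal protein genes (circles) and other protein-coding genes (squares), with the number of genes. In the knockout, other genes fall from 0.59 to -0.25 with length and members from 0.49 to 0.26.

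Genes outside the list at least as abundant as the lower quartile of the members had a median below 0 in the knockout. These 180 genes had a median difference of -0.38, with 8 called higher and 32 lower, where the background was 6.74% higher and 6.69% lower. In controls their median was 0.05.

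Fau, whose product is a further protein of the small subunit but falls outside the naming rule, was not called in the knockout (log2 difference 0.33 ± 0.18, SE, limma adjusted p = 0.221). It read 13150, 13740 and 9766 under olive oil/acetone and 9595 and 9658 under water in the knockout, all treated libraries above both others. Of 19 genes in a mixed list of other mRNAs with a pyrimidine tract and of translation factors, 2 were called higher and 0 lower in the knockout, with a median of 0.23. Of all genes, 6.74% were called higher and 6.69% lower, the background for this list and those below. Neither of the called genes encodes a translation factor. They were Nap1l1, a histone chaperone (0.63 ± 0.15, SE, limma adjusted p = 0.0268), and Vim, which encodes vimentin of mesenchymal cells (0.78 ± 0.22, SE, limma adjusted p = 0.0446). In controls Vim read 3643, 2437 and 2555 under olive oil/acetone and 4965 and 5150 under water, the opposite order without overlap (-0.84 ± 0.22, SE, limma adjusted p = 0.209), and its interaction was 1.61 ± 0.31 (SE, limma adjusted p = 0.356).

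Mitochondrial ribosomal proteins, which build the separate ribosome of that organelle, had more calls: 26 of 77 rose and 0 fell in the knockout, with a median of 0.66. Mrpl20 read 666.4, 900.0 and 721.8 under olive oil/acetone against 393.4 and 369.8 under water (0.99 ± 0.19, SE, limma adjusted p = 0.0166). Nuclear respiratory chain subunits showed 40 of 79 higher and 0 lower, with a median of 0.74. Short mRNAs had more calls as well. Of protein-coding genes outside the members, 44 of 223 up to 600 bases were called higher and 6 lower. Of those with 600 to 1000 bases, 137 of 781 were called higher and 16 lower. The part of mRNA length in the calls of these lists was not tested. In controls 0 of either list were called, where 0.0627% of all genes were, with medians of 0.28 and 0.30.

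Genes that assemble ribosomes had a median below 0. Of 44 genes of ribosome biogenesis and RNA polymerase I, 8 fell and 0 rose in the knockout, with a median of -0.24. Nop58, a core protein of box C/D small nucleolar particles, read 1998, 1380 and 1514 under olive oil/acetone and 2809 and 2921 under water (-0.83 ± 0.20, SE, limma adjusted p = 0.0300). Utp18, of the small subunit processome, fell by 0.67 ± 0.17 (SE, limma adjusted p = 0.0322). In controls 0 of the 44 were called, where 0.0627% of all genes were, and the median was 0.04.

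Among 16 regulators of ribosome production, 1 fell and 0 rose in the knockout. Since 6.69% of all genes were called lower and 6.74% higher, 1 of 16 was not above the background. The 1 that fell was Myc, the transcription factor that drives ribosome genes. It read 1108, 1189 and 1054 under olive oil/acetone and 1661 and 1631 under water (-0.56 ± 0.16, SE, limma adjusted p = 0.0484). Of 16 p53 targets, 1 rose and 3 fell, among them Trp53inp1 (-1.02 ± 0.20, SE, limma adjusted p = 0.0171) and Sesn2 (-1.51 ± 0.32, SE, limma adjusted p = 0.0212). Of 16 proliferation genes, 15 rose and 0 fell, with a median of 1.84. Rrm2, a subunit of ribonucleotide reductase, read 818.5, 766.2 and 804.8 against 299.9 and 319.9 (1.36 ± 0.15, SE, limma adjusted p = 0.00282). In controls 0 genes of these 3 lists were called, where 0.0627% of all genes were, and the proliferation median was 0.85. Without knockout water replicate 1, 0 genes of these lists and of those in the preceding paragraphs were called in the knockout, and without replicate 2 of that group only 2 proliferation genes were.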

How the data were processed

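RNA of keratinocytes from 10 mouse back skin samples was sequenced, in 4 groups. Per the labels' protocols, a NEBNext Ultra kit made the libraries. The submitters' processing notes name GRCm38 (mm10) and the tools DESeq2 1.26.0, featureCounts 2.0.0 and Trimmomatic 0.38. Which aligner, annotation release and strand setting the authors chose is not given in the sources used here. The deposited values are a normalised signal per gene, 1 file per library. Within a file, 100% of values fell within 0.1 of a multiple of that file's unit, and dividing by it gave whole reads. PCR reads are not independent molecules.

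All 17983 identifiers matched GENCODE M21. Genes listed in all 10 files were rescaled by median-of-ratios factors and kept at 10 or more in at least 2 libraries (15958 genes). limma 3.58.1 (R 4.3.3; lmFit, contrasts.fit and eBayes with a variance trend) fitted 1 model of 4 group means to log2(value + 1) in all libraries. Two-sided p-values were adjusted by Benjamini-Hochberg across every gene in the fit, and 0.05 was the threshold for a call. This fold change understates the change of low genes. edgeR 4.0.16 and DESeq2 1.42.0 were run on the recovered read counts as alternatives, and the steps were tested on simulated data.

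The members and gene lists were chosen with earlier results of these data known, so no p is given over a list. Named members were the 6 highest and 6 lowest differences of each comparison between treatments, the 5 highest and lowest per kilobase, and genes fixed by role. Between genotypes the highest and the lowest difference were named, and for the interaction the 2 highest. From other lists, up to the 2 with the lowest p were named. Rpl14, Rps12, Rpl15, Rpl35 and Rpl23a, outside this rule, were named after their values were seen. Promoters came from RefSeq on GRCm38.p6, where 62 members matched. Results for single genes that are withheld are not reported here. The principal mRNA is the best APPRIS transcript. Alternatives covered scaling, pseudocount, filters, genes, samples in the fit, variance model, replicate block, test, length trend and each library left out.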

Additional observations from a re-analysis of the deposited data

How the results depend on the processing

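The count of 0 called members held under every alternative run in controls, between genotypes under water and for the interaction. Few genes of any kind were called there. The share over all genes was at most 2.95% in controls, reached without control olive oil/acetone replicate 1. Under water it was at most 0.0376% and for the interaction 1.23%, both with DESeq2. Between genotypes under olive oil/acetone the count of members became 1 (lower in the knockout) with library weights, whose estimation did not converge. That fit called 25.5% of all genes. In the knockout the 4 calls became 15 with equal totals (13.7% of all genes called), which moved the median of all genes from 0.01 to 0.13, and 0 without a variance trend (5.03%). They became 27 with library weights (26 higher, 1 lower; 40.7%), 14 with DESeq2 (22.7%), 12 with the 2 groups alone (24.9%) and 1 with the length trend removed (10.1%). With the replicate block the count was 9 (17.3%). In controls the block called 0 members (0.363% of all genes), and 10 had an unadjusted p under 0.05 (13.9% of all genes). Deviations of same-numbered libraries correlated between -0.11 and 0.45, and those of differently numbered libraries between -0.45 and 0.35. In groups of 2 libraries the deviations mirror each other, so these values do not settle whether replicate numbers pair the libraries. The block is given only here. Leaving out 1 library gave 0 to 23 calls. The knockout median was 0.10 with the length trend removed. Medians without 1 library ran from -0.011 to 0.56 in controls, from -0.008 to 0.16 between genotypes under olive oil/acetone, from -0.34 to 0.24 between them under water and from -0.18 to 0.40 for the interaction; the length trend removed turned the last 3 to -0.05, 0.01 and -0.06; other alternatives moved medians by less than the spread of library medians (SD 0.200). The median level per kilobase was 7613 over merged exons, 13220 over the longest transcript and 18870 over the principal mRNA.

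Named members that turned sign are these. In the knockout, Rpl24 was 0.04 with equal totals and Rps3a1 -0.12 with library weights. With the length trend removed, Rps3a1 was -0.25, Rps19 -0.16, Rps27l -0.13, Rpl22 -0.07 and Rps7 -0.13. Leaving out 1 library gave -0.35 to 0.06 for Rpl36al, -0.37 to 0.19 for Rpl24 and -0.14 to 0.24 for Rps3a1. In controls, Rpl36al was -0.01 with equal totals and -0.08 with the length trend removed, and Rps27 was -0.04 with library weights, -0.02 with edgeR and -0.01 with DESeq2. Leaving out 1 library there gave -0.24 to 0.00 for Rpl24, -0.23 to 0.03 for Rps10, -0.35 to 0.32 for Rps27l, -0.20 to 0.26 for Rpl36al and -0.59 to 0.85 for Rps27. Between genotypes, it gave -0.33 to 0.03 for Rps3a1 under olive oil/acetone and -0.96 to 0.42 for Rps29 under water. For the interaction it gave -0.02 to 1.20 for Rpl38 and -0.14 to 1.23 for Rps29. With 2 libraries under water in each genotype, leaving 1 out assumes that the lone library varies like the other groups. Depth limits Rpl36al most, with 25.3 to 44.9 counts per library.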
